A study of Mus musculus with 10 samples.

Results

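Ribosome production was followed through 46 genes: Myc, its partner Max, the polyamine enzymes Srm and Odc1, and 42 genes for RNA polymerase I transcription, snoRNA-guided RNA modification, subunit processing and nucleolar proteins. They were chosen by symbol, and all 46 were found among the 23992 symbols of the deposited tables. The cells were CD8+ T lymphocytes isolated from spleens of C57BL/6N mice, activated for 48 h on plate-bound anti-CD3 with soluble anti-CD28 (2 µg/ml each), then pooled, washed, replated and cultured for a further 48 h. The IL-21 + LDHi group received mouse IL-21 (100 ng/ml) together with the lactate dehydrogenase inhibitor NCI-737 (LDHi, 1 µM), and the IL-21 group received IL-21 alone. The IL-2 + LDHi group received human IL-2 (100 IU/ml) with the same inhibitor, and the IL-2 group received IL-2 alone. The no cytokine group was activated in the same way and then cultured without cytokine. The inhibitor was present from activation onward and was renewed at replating, so its effect on activation and its effect on the response to cytokine cannot be told apart, and none of the groups received it without a cytokine. Each group had 2 poly(A) RNA libraries. Nothing in the labels ties a replicate number to an animal or a culture, so the pairs of libraries may be technical repeats. Each p-value reflects a spread estimated jointly over all 10 libraries, so it also depends on libraries outside the comparison.

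MYC is a transcription factor that binds DNA as a dimer with MAX and is known to drive growth of T cells after antigen receptor signalling, in part by raising genes for ribosome production and for polyamines. Ribosomes are assembled in the nucleolus, where RNA polymerase I transcribes the ribosomal DNA and small nucleolar RNPs guide methylation (box C/D) and pseudouridylation (box H/ACA) of the transcript. Separate sets of factors then process and export the precursors of the small and the large subunit. Lactate dehydrogenase turns pyruvate into lactate, the last step of the glycolysis that activated T cells rely on.

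The libraries held 45138204 to 62848913 total reads as the authors counted them, 27137186 to 46656186 of which fell on the 1 transcript kept per symbol (59.9 to 79.4% of the total). IL-21 replicate 2 had the lowest kept share. The IL-21 pair also had the widest spread, with an SD of 0.76 for the log2 difference between replicates across genes, against 0.302 in IL-2 + LDHi. In every library the members had at least 514 reads each, and all 46 were among the 14357 genes tested. Of 9 CD8 T cell markers 8 were in the tables, and their summed RPKM (reads per kilobase of transcript, scaled to library size) lay between 1788 and 2462 in all libraries. The 8 granulocyte, mast cell and basophil markers summed to 0.967 to 1.63 RPKM in IL-21 + LDHi, 110 to 143 in IL-21, 1.63 to 1.68 in IL-2 + LDHi, 3.88 to 4.22 in IL-2 and 334 to 664 without cytokine. Elane and S100a8 were listed at 0 in both libraries of each inhibitor group. S100a9 was listed at 0 in both IL-21 + LDHi libraries and at 0.0304 and 0 RPKM in IL-2 + LDHi. The 8 macrophage, monocyte and dendritic cell markers present summed to 6.63 to 8.98, 60.8 to 63.5, 14.0 to 20.4, 11.9 to 14.4 and 145 to 188 RPKM in the same order of groups, with Flt3 under 1 RPKM in each library. The 4 nuclear noncoding RNAs listed as a check of RNA quality summed to 502 to 554 RPKM in IL-21 + LDHi, 340 to 363 in IL-21, 287 to 307 in IL-2 + LDHi, 230.5 to 278 in IL-2 and 353 to 371 without cytokine. They did not move together. Malat1 and Neat1 were highest in IL-21 + LDHi, whereas Xist was lowest there (42.7 and 41.8 RPKM) and highest in IL-2 (127 and 103 RPKM).

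Most members were at their highest in the groups that received the inhibitor, and Myc was not among them. All 4 inhibitor libraries had more RPKM than all 6 other libraries for 26 of 46 members (56.5%), a pattern chosen after the values were seen and found in 5.44% of the genes tested. By group means this held for 33 members in RPKM and for 31 in normalised log2 CPM (14.2% of genes tested in RPKM, not counted over all genes in log2 CPM). The separation of single libraries did not hold in log2 CPM for Ppan, Tsr1, Nolc1 and Wdr43, which are among the 26. IL-21 + LDHi had the highest mean RPKM for 24 members and IL-2 + LDHi for 15, while IL-2 had the highest for Myc, Polr1c, Nip7, Ncl and Npm1, IL-21 for Max, and no cytokine for Wdr12. In normalised log2 CPM, IL-21 + LDHi had the highest mean for 36 members and IL-2 + LDHi for 4, so the split between the inhibitor groups depends on the scale. The lowest mean RPKM lay without cytokine for 27 members and in IL-2 for 14 (30 and 14 in log2 CPM). Which group had the highest or lowest mean was not counted over all genes, so these counts have no share beside them. The median RPKM of the members was 27.1 and 26.4 in IL-21 + LDHi, 21.7 and 16.6 in IL-21 alone, 24.9 and 26.7 in IL-2 + LDHi, 17.99 and 21.2 in IL-2, and 16.5 and 16.8 without cytokine. In bulk RNA, fewer cells of a type and less RNA per cell cannot be told apart.

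**Figure D1:**
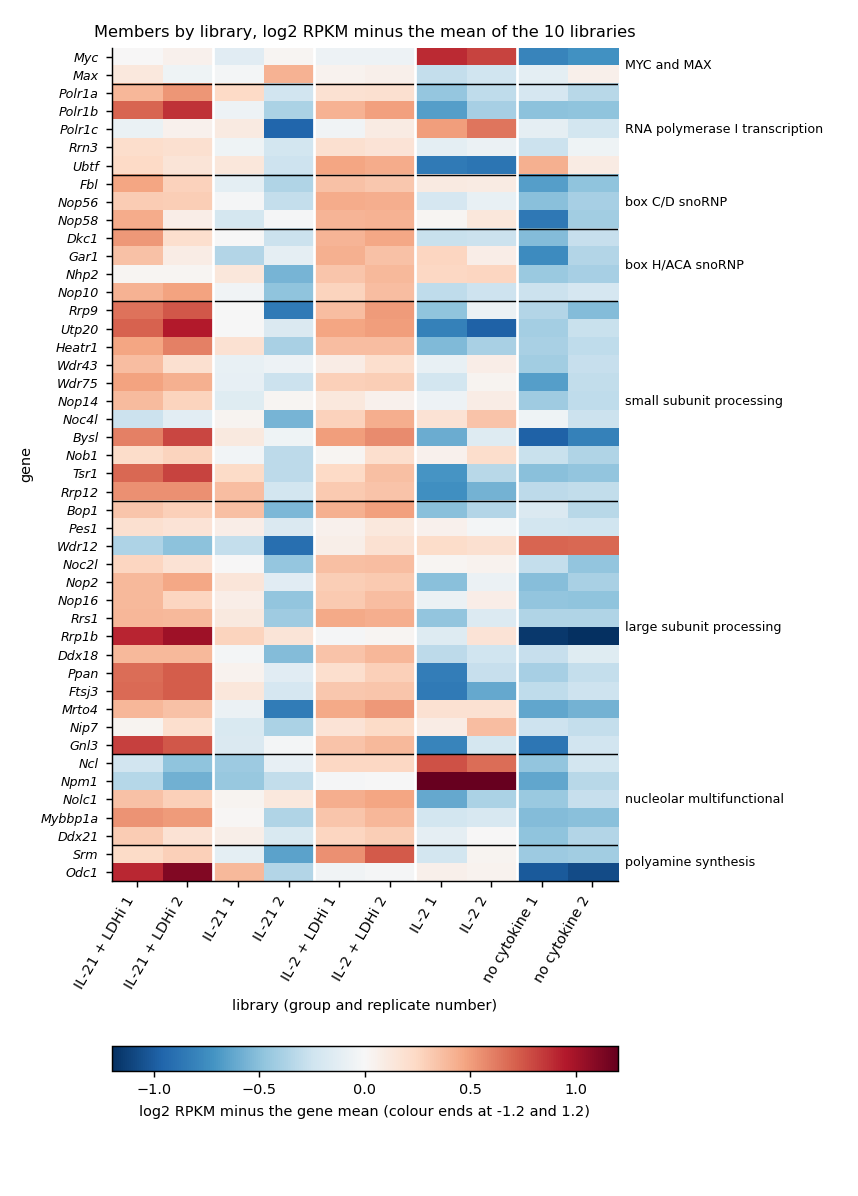
Heat map of the 46 members (rows, grouped by role) in the 10 libraries (columns), coloured by log2 RPKM minus the gene's mean over the libraries. The inhibitor columns are mostly red and the no cytokine columns mostly blue, with Myc, Npm1 and Ncl reddest in IL-2, and Wdr12 reddest without cytokine.

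Myc was highest in IL-2 and lowest without cytokine, and in IL-2 + LDHi it lay within the range of the IL-21 groups. Myc (chromosome 15, 61985391 to 61990374, GRCm38) measured 48.6 and 50.1 RPKM in IL-21 + LDHi, 44.0 and 49.4 in IL-21 alone, 46.4 and 46.5 in IL-2 + LDHi, 89.9 and 85.2 in IL-2 alone, and 28.0 and 29.2 without cytokine. Both IL-2 libraries stood above all others, both libraries without cytokine stood below all others, and the 6 remaining libraries lay between 44.0 and 50.1 RPKM. By edgeR's quasi-likelihood test with Benjamini-Hochberg adjustment, used for every adjusted p here, Myc rose by 1.60 ± 0.15 (adjusted p = 4.39e-05) in IL-2 and by 0.88 ± 0.15 (adjusted p = 0.00677) in IL-21, each against no cytokine (log2 fold change ± SE, n = 2 libraries per group). It fell by 0.71 ± 0.14 (adjusted p = 0.00361) in IL-21 against IL-2. With the inhibitor it fell by 0.96 ± 0.15 (adjusted p = 0.00106) in IL-2, while in IL-21 the change was 0.03 ± 0.14 (adjusted p = 0.91). The difference between these inhibitor effects (IL-21 minus IL-2) was 0.98 ± 0.20 (adjusted p = 0.00922). Against no cytokine Myc was still higher in IL-2 + LDHi, by 0.64 ± 0.15 (adjusted p = 0.0122), and in IL-21 + LDHi, by 0.91 ± 0.15 (adjusted p = 0.00114). The IL-2 + LDHi call was lost without either IL-2 + LDHi library (adjusted p 0.0733 and 0.0651) or without no cytokine replicate 1 (0.064). In the fit of only IL-21 and no cytokine, Myc was not called (0.152).

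Max (chromosome 12, 76937269 to 76962201), which MYC needs to bind DNA, lay between 34.1 and 55.4 RPKM in all libraries. It measured 45.4 and 39.99 RPKM in IL-21 + LDHi, 40.9 and 55.4 in IL-21 alone, 42.7 and 43.2 in IL-2 + LDHi, 34.1 and 35.1 in IL-2 alone, and 38.3 and 43.3 without cytokine. The highest library was IL-21 replicate 2 and the lowest were the pair of IL-2 libraries. Max was called in 1 of 9 comparisons, higher in IL-21 against IL-2 by 0.68 ± 0.21 (adjusted p = 0.0224). That call ended with IL-2 replicate 1 left out (0.104), with IL-2 replicate 2 left out (0.0957) and with IL-21 replicate 2 left out (0.0957).

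The polyamine enzymes Srm and Odc1 differed in which inhibitor group was highest. Odc1 (chromosome 12, 17544794 to 17551505) encodes ornithine decarboxylase, the first enzyme of the pathway and a known MYC target, and measured 114 and 131 RPKM in IL-21 + LDHi, 79.3 and 47.4 in IL-21 alone, 58.9 and 60.2 in IL-2 + LDHi, 63.4 and 62.3 in IL-2 alone, and 30.1 and 28.9 without cytokine. The IL-21 + LDHi libraries stood above all others and the libraries without cytokine below all others. Odc1 rose by 1.07 ± 0.15 (adjusted p = 0.000347) in IL-2 and 1.23 ± 0.15 (adjusted p = 0.00134) in IL-21 against no cytokine. With the inhibitor it rose by 0.94 ± 0.14 (adjusted p = 0.00126) in IL-21, while in IL-2 the change was -0.12 ± 0.14 (adjusted p = 0.55), and the difference of the effects was 1.06 ± 0.20 (adjusted p = 0.00632). Srm (chromosome 4, 148591503 to 148594993), spermidine synthase, measured 24.2 and 25.1 RPKM in IL-21 + LDHi, 19.0 and 13.2 in IL-21 alone, 30.2 and 34.3 in IL-2 + LDHi, 17.7 and 21.2 in IL-2 alone, and 15.3 and 15.4 without cytokine. Its IL-2 + LDHi libraries were highest, and the changes with inhibitor were 0.69 ± 0.13 (adjusted p = 0.00283) in IL-2 and 0.59 ± 0.13 (adjusted p = 0.00757) in IL-21. Of 15 other polyamine genes tested, 6 were higher and 1 lower in IL-2 against no cytokine, and 0 were higher with the inhibitor, with 3 lower in IL-2 and 2 lower in IL-21. The shares of all genes tested were 25.6% higher and 24.8% lower in IL-2 against no cytokine. With the inhibitor they were 17.8% higher and 21.6% lower in IL-2, and 11.1 and 20.3% in IL-21. Smox, spermine oxidase, was lower with the inhibitor in both cytokines, at 2.02 RPKM in IL-2 + LDHi against 8.16 in IL-2 (log2 fold change -2.05 ± 0.16, adjusted p = 3.94e-05) and at 1.75 in IL-21 + LDHi against 3.11 in IL-21 (log2 fold change -0.84 ± 0.16, adjusted p = 0.00415).

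**Figure D2:**
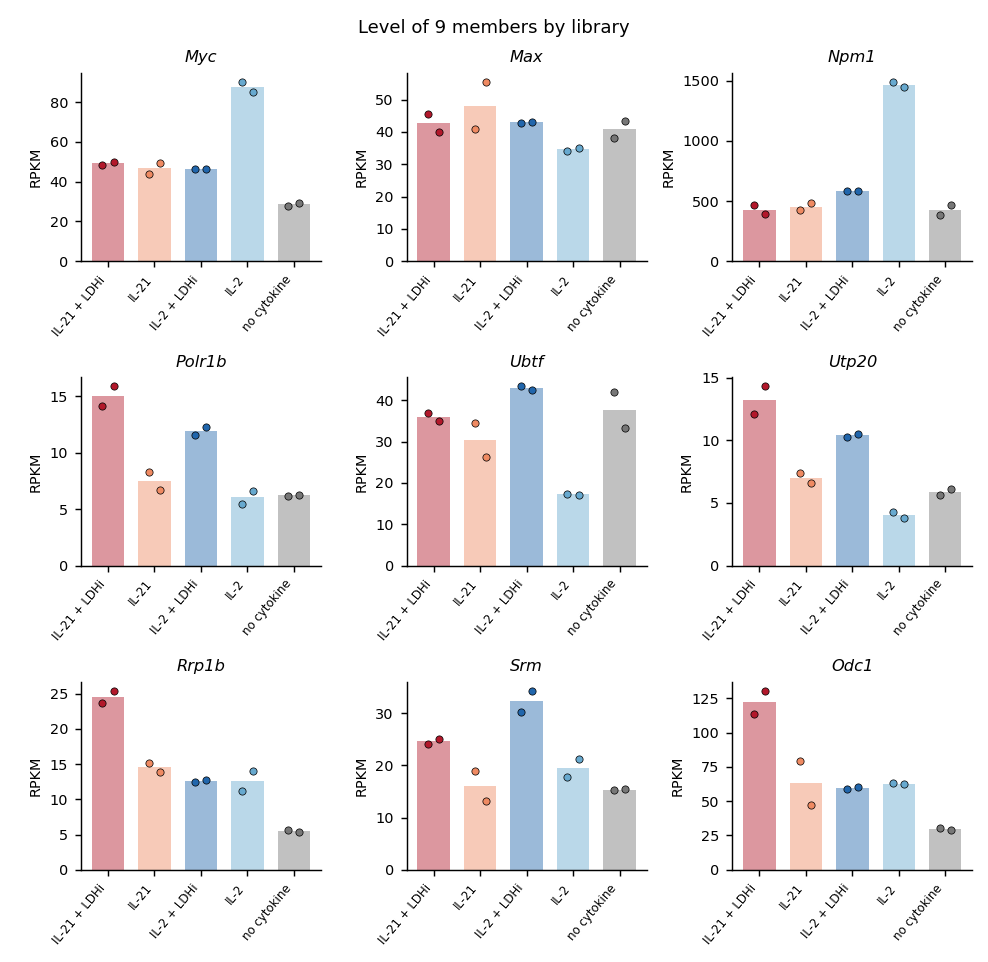
RPKM of 9 members by group, with bars for the group mean and a point for each of the 2 libraries. Myc and Npm1 peak in IL-2, Polr1b and Utp20 in the pair of inhibitor groups, Rrp1b and Odc1 in IL-21 + LDHi, and Ubtf is lowest in IL-2.

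MYC and MAX bind the E-box CACGTG, so this motif was searched in the 250 bases before the start of each member's gene in the RefSeq promoter table (GRCm38.p6), which held 39 of the 46 members. Bases after the start were not searched, so sites there would be missed. As a check of the start, those bases lay in an annotated transcript of the gene for 35 of the 39 members. CACGTG is its own reverse complement, so 1 search covers both strands. It was found in 2 of the 39 members (5.13%) and in 9.45% of 10500 genes tested with an entry. The related CACGCG, which was searched on both strands (as CGCGTG too) and whose matches cannot overlap those of CACGTG, was found in 8 of 39 members (20.5%) and in 15.7% of those genes. The members with CACGTG were Rrn3, which encodes the initiation factor that brings RNA polymerase I to the ribosomal DNA, and Nop2, which encodes a large subunit rRNA methyltransferase. Their windows are shown because no other member with an entry held the motif, with the E-box in capitals, on the plus strand of GRCm38 at chr16:13780457-13780516 and chr16:13780624-13780683 for Rrn3 and at chr6:125131796-125131855 for Nop2.
Rrn3, distal match: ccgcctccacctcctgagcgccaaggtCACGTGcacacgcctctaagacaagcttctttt
Rrn3, proximal match: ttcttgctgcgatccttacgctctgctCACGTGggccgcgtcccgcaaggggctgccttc
Nop2: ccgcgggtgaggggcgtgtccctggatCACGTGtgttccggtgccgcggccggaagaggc

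The first base of the motif lay 48 bases before the start of Rrn3 in the proximal match and 60 bases before that of Nop2. Rrn3 measured 18.2 and 17.98 RPKM in IL-21 + LDHi, 15.1 and 13.5 in IL-21 alone, 17.9 and 17.6 in IL-2 + LDHi, 14.5 and 15.001 in IL-2 alone, and 13.1 and 15.2 without cytokine. Its 4 inhibitor libraries lay above the other 6 by a narrow margin, and of the 9 comparisons it was called in 1, higher in IL-21 + LDHi against no cytokine by 0.47 ± 0.11 (adjusted p = 0.00773). Nop2 measured 23.2 and 24.4 RPKM in IL-21 + LDHi, 19.5 and 16.1 in IL-21 alone, 21.7 and 21.9 in IL-2 + LDHi, 12.5 and 16.8 in IL-2 alone, and 12.4 and 13.4 without cytokine. It was higher with the inhibitor in IL-2 (0.54 ± 0.13, adjusted p = 0.0118), and in IL-21 the change was 0.39 ± 0.13 (adjusted p = 0.0562). The 37 other members with an entry had a median change of 0.30 with the inhibitor in IL-2 and 0.42 in IL-21, against 0.39 and 0.34 for Rrn3 and Nop2 (the mean of the pair, which is its median). A match is a description of these letters and not a measured binding site.

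Of the 5 RNA polymerase I genes, Polr1a, Polr1b and Ubtf were higher with the inhibitor in IL-2 and Polr1c was lower (17.8 and 21.6% of all genes tested were called in these directions), and in IL-21 Polr1a and Polr1b were higher (11.1% of all genes tested). Polr1b, the second largest subunit, measured 14.1 and 15.9 RPKM in IL-21 + LDHi, 8.31 and 6.68 in IL-21 alone, 11.6 and 12.2 in IL-2 + LDHi, 5.49 and 6.59 in IL-2 alone, and 6.19 and 6.23 without cytokine. Both inhibitor groups stood above every other library. It rose by 0.94 ± 0.12 (adjusted p = 0.000345) with the inhibitor in IL-2 and by 0.97 ± 0.12 (adjusted p = 0.000275) in IL-21. Polr1a, the largest subunit, measured 16.6 and 18.1 RPKM in IL-21 + LDHi, 14.8 and 10.7 in IL-21 alone, 14.3 and 14.3 in IL-2 + LDHi, 9.09 and 10.2 in IL-2 alone, and 10.9 and 10.0 without cytokine. IL-21 replicate 1, at 14.8 RPKM, lay inside the range of the inhibitor libraries, and the changes with inhibitor were 0.53 ± 0.11 (adjusted p = 0.00418) in IL-2 and 0.42 ± 0.11 (adjusted p = 0.0151) in IL-21. Polr1c, a subunit shared with RNA polymerase III, measured 18.8 and 20.5 RPKM in IL-21 + LDHi, 21.4 and 10.3 in IL-21 alone, 19.3 and 21.2 in IL-2 + LDHi, 28.0 and 31.0 in IL-2 alone, and 18.4 and 17.0 without cytokine. It was highest in IL-2, where it rose by 0.72 ± 0.21 (adjusted p = 0.0173) against no cytokine and fell by 0.59 ± 0.21 (adjusted p = 0.0492) with the inhibitor. That fall lay close to the threshold of 0.05 and was not called in 13 of 21 alternative settings, among them without either IL-2 library (0.126 and 0.212) and without either IL-2 + LDHi library (0.219 and 0.143). Its lowest library was IL-21 replicate 2.

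Ubtf (chromosome 11, 102304560 to 102319742) encodes the upstream binding factor that keeps ribosomal DNA open for transcription, and it was lowest where Myc was highest. It measured 36.8 and 34.9 RPKM in IL-21 + LDHi, 34.4 and 26.4 in IL-21 alone, 43.4 and 42.6 in IL-2 + LDHi, 17.4 and 17.0 in IL-2 alone, and 42.1 and 33.4 without cytokine. The pair of IL-2 libraries lay below all 8 others. Ubtf fell by 1.15 ± 0.12 (adjusted p = 8.43e-05) in IL-2 against no cytokine and was higher with the inhibitor in IL-2 by 1.28 ± 0.12 (adjusted p = 8.96e-05), while with the inhibitor in IL-21 the change was 0.21 ± 0.12 (adjusted p = 0.203). The difference of these effects was -1.06 ± 0.17 (adjusted p = 0.00242). Of 13 other RNA polymerase I genes, 4 were higher and 2 lower with the inhibitor in IL-2, with 2 higher and 1 lower in IL-21. Of 22 RNA polymerase III genes 8 were higher and 2 lower in IL-2, with 4 higher and 0 lower in IL-21. The shares of all genes tested were 17.8% higher and 21.6% lower in IL-2, and 11.1 and 20.3% in IL-21.

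Of the 3 box C/D core proteins, 3 were higher in IL-2 and 2 in IL-21 than without cytokine, and of the 4 box H/ACA core proteins 2 and 0, where 25.6% (IL-2) and 5.65% (IL-21) of all genes tested were higher. All 7 were higher than without cytokine in IL-21 + LDHi (13.5% of all genes tested) and in IL-2 + LDHi (10.9%). Fbl (chromosome 7, 28169710 to 28179269) encodes fibrillarin, the methyltransferase of box C/D particles, and measured 109 and 95.2 RPKM in IL-21 + LDHi, 72.6 and 61.4 in IL-21 alone, 101 and 98.6 in IL-2 + LDHi, 84.7 and 84.1 in IL-2 alone, and 49.8 and 56.4 without cytokine. The libraries without cytokine were the lowest and the inhibitor libraries the highest, without overlap. It rose by 0.58 ± 0.11 (adjusted p = 0.00427) with the inhibitor in IL-21, and the change in IL-2 was 0.20 ± 0.11 (adjusted p = 0.187). Nop56, a core protein of the same particle, measured 89.0 and 88.1 RPKM in IL-21 + LDHi, 71.1 and 59.1 in IL-21 alone, 97.8 and 97.5 in IL-2 + LDHi, 62.6 and 67.7 in IL-2 alone, and 50.9 and 54.5 without cytokine. It was higher with the inhibitor in both cytokines, by 0.54 ± 0.09 (adjusted p = 0.00207) in IL-2 and 0.41 ± 0.09 (adjusted p = 0.00995) in IL-21. Nop58, the partner of Nop56, lay between 30.7 and 75.5 RPKM and was not called with the inhibitor in either cytokine.

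Among the box H/ACA proteins, Dkc1, which encodes the pseudouridine synthase dyskerin, measured 45.4 and 36.4 RPKM in IL-21 + LDHi, 31.6 and 26.6 in IL-21 alone, 42.0 and 43.7 in IL-2 + LDHi, 26.3 and 26.5 in IL-2 alone, and 22.0 and 26.2 without cytokine. It was higher with the inhibitor by 0.66 ± 0.13 (adjusted p = 0.00442) in IL-2 and 0.46 ± 0.13 (adjusted p = 0.0275) in IL-21. Nop10, a small core protein, measured 62.4 and 65.7 RPKM in IL-21 + LDHi, 45.4 and 33.6 in IL-21 alone, 56.5 and 60.5 in IL-2 + LDHi, 37.9 and 39.5 in IL-2 alone, and 39.3 and 40.8 without cytokine. Both inhibitor groups lay above the other 6 libraries, and the changes were 0.55 ± 0.10 (adjusted p = 0.00283) in IL-2 and 0.68 ± 0.10 (adjusted p = 0.00115) in IL-21. Nop10 was not called in either cytokine alone against no cytokine (-0.07 ± 0.10, adjusted p = 0.613 in IL-2 and 0.13 ± 0.10, adjusted p = 0.475 in IL-21). Gar1 and Nhp2, the remaining core proteins, were higher in IL-2 against no cytokine (0.69 ± 0.21, adjusted p = 0.0225 and 0.65 ± 0.13, adjusted p = 0.00334) and were not called with the inhibitor in either cytokine.

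Of the 11 small subunit factors, 6 were higher and 0 lower with the inhibitor in IL-2 (17.8% higher and 21.6% lower among all genes tested), and 8 were higher and 0 lower with it in IL-21 (11.1% higher and 20.3% lower). Utp20 (chromosome 10, 88746607 to 88826804), a component of the small subunit processome, measured 12.1 and 14.3 RPKM in IL-21 + LDHi, 7.41 and 6.56 in IL-21 alone, 10.3 and 10.5 in IL-2 + LDHi, 4.24 and 3.80 in IL-2 alone, and 5.60 and 6.15 without cytokine. The inhibitor libraries stood above the rest and the pair of IL-2 libraries was lowest. Utp20 fell by 0.57 ± 0.12 (adjusted p = 0.00417) in IL-2 against no cytokine, and rose with the inhibitor by 1.33 ± 0.12 (adjusted p = 7.69e-05) in IL-2 and 0.88 ± 0.12 (adjusted p = 0.000624) in IL-21. Rrp9, a protein of the U3 snoRNP, measured 20.9 and 22.2 RPKM in IL-21 + LDHi, 13.2 and 7.38 in IL-21 alone, 17.1 and 18.9 in IL-2 + LDHi, 9.47 and 12.6 in IL-2 alone, and 10.4 and 9.25 without cytokine. Its inhibitor libraries did not overlap the others. The changes with inhibitor were 0.67 ± 0.19 (adjusted p = 0.022) in IL-2 and 1.06 ± 0.19 (adjusted p = 0.00309) in IL-21.

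Bysl (chromosome 17, 47599331 to 47611492), the homologue of yeast ENP1 and needed for 40S maturation, rose most of all members in IL-2 + LDHi against no cytokine. It measured 8.30 and 9.51 RPKM in IL-21 + LDHi, 5.90 and 5.25 in IL-21 alone, 7.70 and 8.07 in IL-2 + LDHi, 3.61 and 4.90 in IL-2 alone, and 2.78 and 3.12 without cytokine. The 5 groups did not overlap, with IL-21 + LDHi highest and no cytokine lowest. Against no cytokine Bysl rose by 1.72 ± 0.16 (adjusted p = 4.56e-05) in IL-21 + LDHi, 1.08 ± 0.16 (adjusted p = 0.0041) in IL-21, 1.36 ± 0.16 (adjusted p = 0.000391) in IL-2 + LDHi and 0.51 ± 0.16 (adjusted p = 0.0242) in IL-2. Its exons share 361 bases with Ccnd3 on the opposite strand, which measured 43.5 to 95.3 RPKM, and no source used here gives the strand setting of the counting, so reads of the 2 genes cannot be told apart there.

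Heatr1, the homologue of yeast UTP10, measured 20.4 and 22.4 RPKM in IL-21 + LDHi, 16.8 and 11.3 in IL-21 alone, 19.0 and 19.0 in IL-2 + LDHi, 10.2 and 11.2 in IL-2 alone, and 11.3 and 11.9 without cytokine. It and Tsr1, a late 40S maturation factor, were both higher with the inhibitor in each cytokine. Tsr1 measured 32.4 and 35.2 RPKM in IL-21 + LDHi, 23.5 and 16.2 in IL-21 alone, 23.8 and 25.9 in IL-2 + LDHi, 12.3 and 16.01 in IL-2 alone, and 14.2 and 14.5 without cytokine and changed by 0.77 ± 0.14 (adjusted p = 0.00233) in IL-2 and 0.75 ± 0.14 (adjusted p = 0.00315) in IL-21. Rrp12, which takes part in processing and export, measured 13.2 and 13.2 RPKM in IL-21 + LDHi, 11.7 and 7.74 in IL-21 alone, 11.2 and 11.5 in IL-2 + LDHi, 5.42 and 6.11 in IL-2 alone, and 7.27 and 7.37 without cytokine, and IL-21 replicate 1 lay within the range of the inhibitor libraries. Wdr75, a processome protein, was called with the inhibitor in IL-21 (0.59 ± 0.14, adjusted p = 0.0132), as was Nob1, the endonuclease that cuts the end of 18S rRNA (0.38 ± 0.11, adjusted p = 0.0256). Nob1 lay at 16.5 to 25.4 RPKM in all libraries. Wdr43 and Nop14 (27.9 to 48.2 and 15.2 to 26.6 RPKM) were not called with the inhibitor. Noc4l, the partner of Nop14, lay at 11.4 to 22.6 RPKM and was the member of this group that was not called in IL-21 + LDHi against no cytokine (0.09 ± 0.13, adjusted p = 0.665).

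Of the 14 large subunit factors, 7 were higher and 0 lower with the inhibitor in IL-2 (17.8% higher and 21.6% lower among all genes tested), and 10 were higher and 0 lower with it in IL-21 (11.1% higher and 20.3% lower). Ftsj3, an rRNA methyltransferase, measured 43.3 and 44.8 RPKM in IL-21 + LDHi, 29.7 and 23.5 in IL-21 alone, 33.8 and 34.0 in IL-2 + LDHi, 15.02 and 17.6 in IL-2 alone, and 21.8 and 22.7 without cytokine. The inhibitor libraries were highest and the IL-2 libraries lowest, and Ftsj3 rose with the inhibitor by 1.02 ± 0.10 (adjusted p = 0.000111) in IL-2 and 0.70 ± 0.10 (adjusted p = 0.00080) in IL-21. Gnl3, which encodes nucleostemin, measured 54.3 and 51.7 RPKM in IL-21 + LDHi, 27.3 and 30.4 in IL-21 alone, 39.1 and 40.3 in IL-2 + LDHi, 17.8 and 26.6 in IL-2 alone, and 16.9 and 26.3 without cytokine. Its replicates differed widely in IL-2 and without cytokine, its SE was 0.25, and the changes with inhibitor were 0.80 ± 0.25 (adjusted p = 0.030) in IL-2 and 0.82 ± 0.25 (adjusted p = 0.0321) in IL-21. Ppan, a 60S assembly factor, measured 25.5 and 26.6 RPKM in IL-21 + LDHi, 16.4 and 14.6 in IL-21 alone, 18.4 and 19.6 in IL-2 + LDHi, 9.02 and 13.2 in IL-2 alone, and 12.1 and 13.1 without cytokine. All 4 inhibitor libraries lay above the others in RPKM, but in normalised log2 CPM IL-21 replicate 2 (5.35) lay above IL-2 + LDHi replicate 1 (5.33). The changes of Ppan with inhibitor were 0.73 ± 0.16 (adjusted p = 0.00709) in IL-2 and 0.71 ± 0.16 (adjusted p = 0.0102) in IL-21. Ddx18, a helicase, measured 42.1 and 42.1 RPKM in IL-21 + LDHi, 31.7 and 22.5 in IL-21 alone, 40.8 and 42.5 in IL-2 + LDHi, 25.9 and 27.3 in IL-2 alone, and 26.6 and 29.0 without cytokine, and its changes with inhibitor were close in size, 0.61 ± 0.10 (adjusted p = 0.00192) in IL-2 and 0.62 ± 0.10 (adjusted p = 0.0021) in IL-21.

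Rrp1b (chromosome 17, 32036100 to 32062865), a 60S assembly factor that also acts as a transcriptional cofactor, followed its own order. It measured 23.6 and 25.5 RPKM in IL-21 + LDHi, 15.1 and 13.9 in IL-21 alone, 12.4 and 12.7 in IL-2 + LDHi, 11.2 and 14.1 in IL-2 alone, and 5.60 and 5.40 without cytokine. The IL-21 + LDHi pair was highest, the pair without cytokine was lowest, and the 3 other groups ran together between 11.2 and 15.1 RPKM. It rose with the inhibitor in IL-21 by 0.72 ± 0.12 (adjusted p = 0.00214), while in IL-2 the change was -0.04 ± 0.12 (adjusted p = 0.798), and the difference of the effects was 0.76 ± 0.17 (adjusted p = 0.013). Against no cytokine it had the largest rise of the members in IL-21 + LDHi, 2.28 ± 0.13 (adjusted p = 2.58e-06).

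Bop1, Pes1 and Wdr12 form the PeBoW complex, which processes the large subunit precursor. Against no cytokine Wdr12 was called lower in all 4 other groups, while neither partner was called lower in any of them. Pes1 was called higher in IL-21 + LDHi (0.53 ± 0.09, adjusted p = 0.00163) and IL-21 (0.35 ± 0.09, adjusted p = 0.0415) and not in IL-2 + LDHi (0.26 ± 0.09, adjusted p = 0.066) or IL-2 (0.23 ± 0.09, adjusted p = 0.0653). Bop1 was called higher in IL-21 + LDHi (0.69 ± 0.17, adjusted p = 0.0126) and IL-2 + LDHi (0.65 ± 0.17, adjusted p = 0.0238), and not in IL-21 (0.36 ± 0.17, adjusted p = 0.222) or IL-2, where its change was -0.19 ± 0.17 (adjusted p = 0.39). Wdr12 (chromosome 1, 60069785 to 60098645) measured 9.11 and 8.36 RPKM in IL-21 + LDHi, 9.63 and 6.31 in IL-21 alone, 12.4 and 13.4 in IL-2 + LDHi, 13.8 and 13.4 in IL-2 alone, and 19.1 and 18.9 without cytokine. The libraries without cytokine were the highest of all 10, and Wdr12 was lower in each of the 4 other groups, by 1.00 ± 0.12 (adjusted p = 0.000252) in IL-21 + LDHi, 1.12 ± 0.12 (adjusted p = 0.000987) in IL-21, 0.62 ± 0.12 (adjusted p = 0.0065) in IL-2 + LDHi and 0.50 ± 0.12 (adjusted p = 0.00847) in IL-2. The IL-2 + LDHi call was lost without IL-2 + LDHi replicate 1 (0.0805) or replicate 2 (0.0537), and the IL-2 call without IL-2 replicate 2 (0.0671). Both calls were also lost on the authors' library totals and in the limma fits (adjusted p 0.062 to 0.0715 in IL-2 + LDHi and 0.0579 to 0.0658 in IL-2). Bop1 measured 22.4 and 21.7 RPKM in IL-21 + LDHi, 22.8 and 12.3 in IL-21 alone, 23.8 and 25.0 in IL-2 + LDHi, 12.5 and 14.0 in IL-2 alone, and 15.7 and 14.1 without cytokine, and was higher with the inhibitor in IL-2 (0.84 ± 0.17, adjusted p = 0.00491) but was not called in IL-21 (0.33 ± 0.17, adjusted p = 0.176), whose replicates were 22.8 and 12.3 RPKM. Pes1 lay between 21.2 and 28.7 RPKM and was not called with the inhibitor in either cytokine (0.04 ± 0.09, adjusted p = 0.771 in IL-2 and 0.18 ± 0.09, adjusted p = 0.156 in IL-21). Wdr12 shares 61 exon bases with Carf (1.22 to 3.97 RPKM) and Bop1 shares 50 with Mroh1 (3.24 to 8.16 RPKM), in both cases on the opposite strand.

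Rrs1, which helps to bring the 5S RNP into the large subunit, measured 17.1 and 16.9 RPKM in IL-21 + LDHi, 14.1 and 9.63 in IL-21 alone, 17.7 and 17.6 in IL-2 + LDHi, 9.32 and 11.5 in IL-2 alone, and 10.1 and 10.1 without cytokine, and was higher with the inhibitor in both cytokines (0.72 ± 0.13, adjusted p = 0.00265 in IL-2 and 0.51 ± 0.13, adjusted p = 0.0172 in IL-21). Noc2l, Nop16, Mrto4 and Nip7, all large subunit assembly or processing factors, were called higher with the inhibitor in IL-21 and not in IL-2. The transcript kept for Nip7, 1 of 3 listed, is 3126 bases long and carries the RefSeq prefix of a non-coding RNA. Mrto4 measured 29.5 and 28.5 RPKM in IL-21 + LDHi, 21.2 and 12.5 in IL-21 alone, 30.5 and 32.0 in IL-2 + LDHi, 25.3 and 25.4 in IL-2 alone, and 14.5 and 15.1 without cytokine. In RPKM the libraries without cytokine were among the lowest 3 and IL-21 replicate 2 was the lowest. In normalised log2 CPM the pair without cytokine was lowest (4.18 and 4.26), just below IL-21 replicate 2 (4.28). The change of Mrto4 with inhibitor was 0.77 ± 0.15 (adjusted p = 0.00461) in IL-21 and 0.26 ± 0.15 (adjusted p = 0.201) in IL-2. For these 4 genes the difference between the inhibitor effects was not called (adjusted p 0.651, 0.525, 0.119 and 0.0881).

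The nucleolar proteins Npm1 and Ncl were highest in IL-2, as Myc was. Npm1 (chromosome 11, 33152287 to 33163206) encodes nucleophosmin, a histone and ribosomal protein chaperone, and measured 465 and 395 RPKM in IL-21 + LDHi, 429 and 481 in IL-21 alone, 584 and 585 in IL-2 + LDHi, 1488 and 1445 in IL-2 alone, and 382 and 468 without cytokine. Both IL-2 libraries stood above all 8 others, which lay between 382 and 585 RPKM. Npm1 rose by 1.77 ± 0.18 (adjusted p = 7.76e-05) in IL-2 against no cytokine, fell by 1.496 ± 0.18 (adjusted p = 0.000224) in IL-21 against IL-2 and fell by 1.37 ± 0.18 (adjusted p = 0.000497) with the inhibitor in IL-2. In IL-21 the change with inhibitor was -0.13 ± 0.18 (adjusted p = 0.599), and the difference of the effects was 1.23 ± 0.25 (adjusted p = 0.00825). Ncl, nucleolin, measured 98.2 and 82.3 RPKM in IL-21 + LDHi, 85.0 and 107 in IL-21 alone, 137 and 137 in IL-2 + LDHi, 195 and 183 in IL-2 alone, and 82.8 and 98.3 without cytokine. It rose by 1.04 ± 0.21 (adjusted p = 0.00274) in IL-2 against no cytokine, and its change with the inhibitor in IL-2, -0.51 ± 0.20 (adjusted p = 0.0776), was not called. Npm1 is known for processed pseudogenes, and no source used here says how reads that fit several places were counted. The kept Ncl transcript is 8257 bases long, so that its RPKM divides by a long form. Npm1 and Ncl together held 23.3 to 57.6% of all member reads.

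The 3 other nucleolar members did not share that order. Nolc1, a chaperone of snoRNPs, measured 27.6 and 26.2 RPKM in IL-21 + LDHi, 22.1 and 23.5 in IL-21 alone, 29.2 and 30.0 in IL-2 + LDHi, 14.1 and 16.6 in IL-2 alone, and 15.8 and 17.8 without cytokine. The inhibitor libraries were highest in RPKM, and the IL-2 and no cytokine libraries ran together between 14.1 and 17.8 RPKM. In normalised log2 CPM, IL-21 replicate 2 (7.17) lay above both IL-2 + LDHi libraries (7.12 and 7.14). Nolc1 rose by 0.91 ± 0.15 (adjusted p = 0.00138) with the inhibitor in IL-2, and in IL-21 the change was 0.19 ± 0.14 (adjusted p = 0.347). Mybbp1a, a nucleolar regulator of transcription, measured 60.8 and 59.6 RPKM in IL-21 + LDHi, 42.4 and 32.6 in IL-21 alone, 52.9 and 55.2 in IL-2 + LDHi, 35.9 and 36.7 in IL-2 alone, and 29.2 and 29.6 without cytokine, and was higher with the inhibitor by 0.53 ± 0.09 (adjusted p = 0.00199) in IL-2 and 0.66 ± 0.09 (adjusted p = 0.00071) in IL-21. Ddx21, a nucleolar helicase, measured 67.5 and 61.8 RPKM in IL-21 + LDHi, 57.6 and 48.3 in IL-21 alone, 65.5 and 67.3 in IL-2 + LDHi, 50.8 and 55.0 in IL-2 alone, and 39.2 and 43.0 without cytokine. It rose in IL-2 and in IL-21 against no cytokine (0.34 ± 0.11, adjusted p = 0.0242 and 0.52 ± 0.11, adjusted p = 0.0168) and was not called with the inhibitor in either cytokine.

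With the inhibitor in IL-2, 22 of 46 members were higher and 3 lower than in IL-2 alone, against 17.8% higher and 21.6% lower among all genes tested (39.4% in either direction). The median change of the members was 0.32, and that of all genes 0.01. Utp20, Ubtf and Ftsj3 rose most, and Npm1, Myc and Polr1c were the 3 that fell. For Utp20, which rose by 1.33 ± 0.12 (adjusted p = 7.69e-05) with the inhibitor, the change in IL-2 against no cytokine was -0.57 ± 0.12 (adjusted p = 0.00417), and these comparisons share the IL-2 libraries. Granulocyte and macrophage markers summed to at most 20.4 RPKM in all 4 libraries compared. The number of members called ranged from 20 to 31 with 1 library left out.

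With the inhibitor in IL-21, 27 of 46 members were higher and 0 lower than in IL-21 alone, against 11.1% higher and 20.3% lower among all genes tested (31.3% in either direction). At an unadjusted p below 0.05, edgeR called 0 members lower, and DESeq2 called 28 higher and 0 lower at an adjusted p below 0.05. DESeq2 called 24.4% of all genes it tested. Without IL-21 replicate 1, edgeR called 28 higher and 2 lower, Max among the lower (log2 fold change -0.56, adjusted p = 0.00512). The median change of the members was 0.42, and that of all genes -0.03. Rrp9, Polr1b and Odc1 rose most. The count fell to 16 and 14 without IL-21 + LDHi replicate 1 and replicate 2, and to 13 in a fit of only these 2 groups. In this comparison the granulocyte, mast cell and basophil markers were at 0.967 to 1.63 RPKM in IL-21 + LDHi against 110 to 143 in IL-21, and the macrophage, monocyte and dendritic cell markers were at 6.63 to 8.98 against 60.8 to 63.5 RPKM. The nuclear noncoding RNAs summed to 502 to 554 against 340 to 363 RPKM, while Xist among them was lower (42.7 and 41.8 against 62.1 and 85.4 RPKM). The part of these lists in the result was not tested.

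Across both cytokines, 18 members were called higher with the inhibitor: Polr1a, Polr1b, Nop56, Dkc1, Nop10, Rrp9, Utp20, Heatr1, Bysl, Tsr1, Rrp12, Rrs1, Ddx18, Ppan, Ftsj3, Gnl3, Mybbp1a and Srm. The 2 contrasts share no library, but both come from 1 fit with a shared estimate of the spread. Of all genes tested, 17.8% were called higher with the inhibitor in IL-2 and 11.1% in IL-21. The share called higher in both was not counted over all genes. By call alone 4 further members rose in IL-2 (Ubtf, Bop1, Nop2 and Nolc1) and 9 in IL-21 (Fbl, Wdr75, Nob1, Noc2l, Nop16, Rrp1b, Mrto4, Nip7 and Odc1). The difference between the inhibitor effects, tested as an interaction, was called for 6 of 46 members, 4 with a higher effect in IL-21 (Npm1, Odc1, Myc and Rrp1b) and 2 with a higher effect in IL-2 (Ubtf and Nolc1). Among all genes tested 7.98 and 13.8% were called in those directions (21.7% in either). The Nolc1 call ended without any 1 of the IL-2, IL-2 + LDHi or IL-21 + LDHi libraries (adjusted p 0.0549 to 0.133). The count was 11 without IL-21 replicate 1 or replicate 2.

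**Figure D3:**
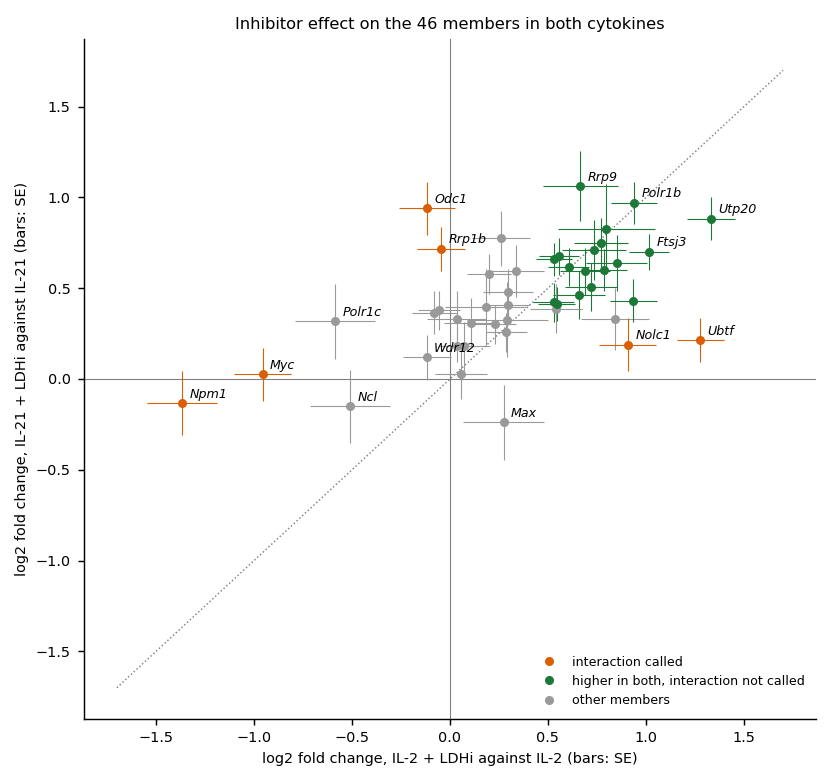
Log2 fold change of each member with the inhibitor in IL-2 (horizontal) and in IL-21 (vertical), with SE bars, n = 2 libraries per group, and a dotted line of equal change. Green points (higher in both, interaction not called) fill the upper right, and of the 6 orange points with a called interaction Npm1 and Myc lie far left near 0 on the vertical axis.

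In IL-2 against no cytokine, 20 members were higher and 5 lower, against 25.6% higher and 24.8% lower among all genes tested, and 50.5% of all genes tested differed in either direction. The 5 lower members were Ubtf, Utp20, Rrp12, Wdr12 and Ftsj3. The median change was 0.29, against -0.03 for all genes. Npm1, Myc and Rrp1b rose most. Of 44 MYC targets outside the ribosome 37 were higher and the other 7 were not called, with a median of 0.81, among them Slc7a5, an amino acid transporter (log2 fold change 2.80 ± 0.15, adjusted p = 3.9e-06), and Shmt2, a mitochondrial serine enzyme (log2 fold change 1.89 ± 0.11, adjusted p = 4.44e-06). Of 48 other small subunit factors 8 were higher and 6 lower, and of 53 other large subunit factors 11 were higher and 6 lower. The number of members called was 16 and 13 with replicate 1 and replicate 2 of IL-2 left out, and 16 without no cytokine replicate 1. Scaled to the library size of the kept transcripts alone, 11 members were higher and 5 lower, with 51.0% of all genes called in either direction. Macrophage and granulocyte markers were at most 14.4 RPKM in IL-2, against at least 145 without cytokine, and their part in the result was not tested.

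In IL-21 against no cytokine, 16 members were higher and Wdr12 was lower, against 5.65% higher and 5.89% lower among all genes tested (11.5% in either direction). The median change was 0.42 against -0.01 for all genes, and Rrp1b, Odc1 and Bysl rose most (1.56 ± 0.12, adjusted p = 0.00015 for Rrp1b). Of the 44 MYC targets outside the ribosome 6 were higher and 38 were not called, with a median of 0.28. The fit of only these 2 groups called 1 member and 0.663% of all genes it tested. The number of members called was 28 without IL-21 replicate 1, 7 without IL-2 + LDHi replicate 1 or 2, 11 without IL-21 + LDHi replicate 1 or 2, and 6 and 10 without no cytokine replicate 1 and 2. On the authors' library totals, 4 members were higher and 1 lower, with 10.3% of all genes called in either direction. Granulocyte, mast cell and basophil markers summed to 110 to 143 RPKM in IL-21 and 334 to 664 without cytokine, and their part in the result was not tested.

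Set directly against IL-2, IL-21 had 15 members higher and 7 lower, against 24.9% higher and 24.7% lower among all genes tested (49.6% in either direction), and the members' median change was 0.16 against 0.02 for all genes. Ubtf, Utp20 and Rrp12 were higher (0.98 ± 0.12, adjusted p = 0.000237, 0.97 ± 0.12, adjusted p = 0.000265 and 0.91 ± 0.12, adjusted p = 0.000361), and Npm1, Ncl and Polr1c were the largest of the lower ones, with Myc also lower. The Polr1c call ended without IL-2 replicate 1 (adjusted p = 0.0506) or replicate 2 (0.0804) and in the fit of only these groups (0.0798), and the Ncl call without IL-2 replicate 1 (0.0723) and in the fit of only these groups (0.0623). Of the MYC targets outside the ribosome 1 was higher and 28 lower, while of the other small subunit factors 16 were higher and 2 lower and of the other large subunit factors 19 were higher and 2 lower. Mdn1, a large subunit remodelling ATPase, was 10.6 RPKM in IL-21 against 4.999 in IL-2 (log2 fold change 1.26 ± 0.11, adjusted p = 4.29e-05). The members called fell to 12 without IL-2 replicate 1. Higher and lower members numbered 18 and 5 with the library size of the kept transcripts and 6 and 7 with the authors' library totals. These settings called 49.9 and 45.3% of all genes in either direction. The granulocyte, mast cell and basophil markers stood at 110 to 143 RPKM in IL-21 against 3.88 to 4.22 in IL-2, and their part here was not tested.

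Between the inhibitor groups, IL-21 + LDHi had 10 members higher and 0 lower than IL-2 + LDHi, against 9.38% higher and 16.7% lower among all genes tested (26.1% in either direction), with a median of 0.21 against 0.01. At an unadjusted p below 0.05, edgeR called 2 members lower, and DESeq2 called 14 higher and 1 lower at an adjusted p below 0.05. DESeq2 called 21.4% of all genes it tested. Odc1 (1.22 ± 0.15, adjusted p = 0.000278), Rrp1b (1.14 ± 0.12, adjusted p = 0.000139) and Ppan (0.64 ± 0.16, adjusted p = 0.019) differed most, and Myc by 0.27 ± 0.14 (adjusted p = 0.212). The Ppan call ended without either IL-2 + LDHi library (0.128 and 0.0973) and without either IL-21 + LDHi library (0.0834 and 0.103). It also ended on the authors' library totals (log2 fold change 0.45, 0.108) and in the limma fits (0.112 and 0.111). The count was 3 without IL-2 + LDHi replicate 1, IL-2 + LDHi replicate 2 or IL-21 + LDHi replicate 2, and 22 without IL-21 replicate 1 or 2. It was 29 in the fit of only these groups, which called 56.0% of all genes it tested. In the fits without 1 library named here, the share of all genes called moved in the same direction as the count of members. Higher and lower members numbered 8 and 2 with the library size of the kept transcripts, and 2 and 1 with the authors' library totals. These settings called 26.2 and 23.8% of all genes in either direction. The nuclear noncoding RNAs summed to 502 to 554 RPKM in IL-21 + LDHi against 287 to 307 in IL-2 + LDHi, while Xist among them was lower (42.7 and 41.8 against 74.5 and 64.3 RPKM). The macrophage, monocyte and dendritic cell markers were at 6.63 to 8.98 against 14.0 to 20.4 RPKM. The part of these lists in the result was not tested.

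Against no cytokine, IL-21 + LDHi had 39 members higher and 1 lower (13.5 and 23.6% of all genes tested, 37.1% in either direction), with a median of 0.88 against -0.01, and IL-2 + LDHi had 37 higher and 1 lower (10.9 and 13.3%, 24.2% in either direction), with a median of 0.67 against -0.03. Wdr12 was the lower one in both, and the pair of comparisons shares the no cytokine libraries. Bysl, Rrp1b and Mrto4 rose most in IL-2 + LDHi (1.02 ± 0.15, adjusted p = 0.00146 for Mrto4), and Rrp1b, Odc1 and Bysl in IL-21 + LDHi (2.17 ± 0.15, adjusted p = 8.26e-06 for Odc1). The IL-2 + LDHi count was 22 without either IL-2 + LDHi library. Of the other small subunit factors 32 of 48 were higher in IL-21 + LDHi, and 20 higher and 1 lower in IL-2 + LDHi. Of the other large subunit factors 37 of 53 were higher in IL-21 + LDHi and 18 in IL-2 + LDHi. Macrophage and granulocyte markers each summed to at most 20.4 RPKM in the inhibitor groups and at least 145 without cytokine, and their part in the result was not tested.

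**Figure D4:**
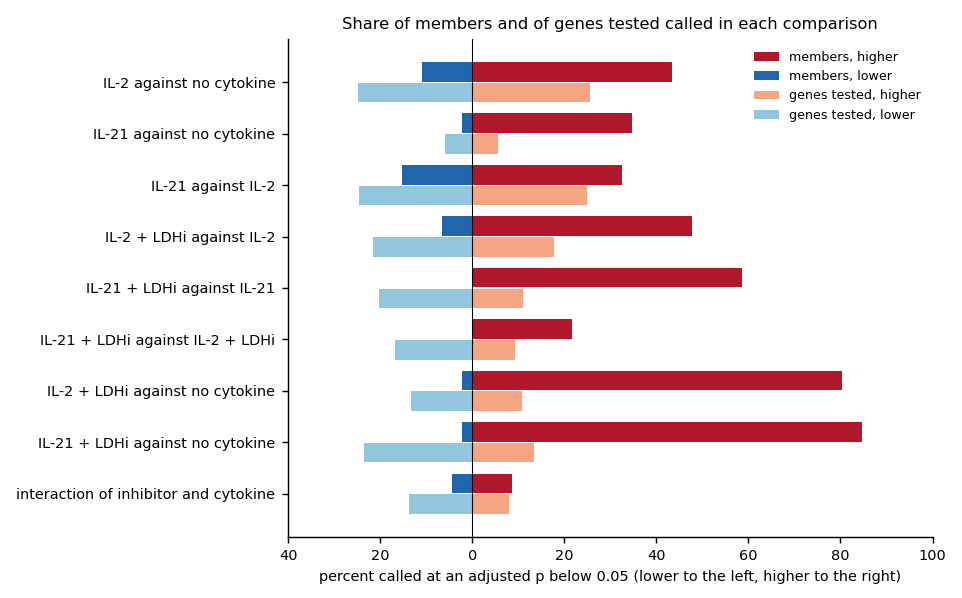
Percent of the 46 members (dark bars) and of the 14357 genes tested (pale bars) called higher (right) and lower (left) at an adjusted p below 0.05 in each comparison. The dark bars reach farthest right in the pair of inhibitor groups against no cytokine (84.8% in IL-21 + LDHi and 80.4% in IL-2 + LDHi) and stay short for the interaction, where 4 members were called higher and 2 lower.

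Other ribosome factors were called higher with the inhibitor more often than lower in both cytokines, and MYC targets outside the ribosome were called lower more often than higher in IL-2. Among all genes tested 17.8% were higher and 21.6% lower with the inhibitor in IL-2, and 11.1% were higher and 20.3% lower in IL-21. Of the 48 other small subunit factors 20 were higher and 4 lower in IL-2, with 19 higher and 0 lower in IL-21. Of the 53 other large subunit factors 21 were higher and 3 lower in IL-2, with 13 higher and 1 lower in IL-21. Mdn1 was 15.1 RPKM in IL-2 + LDHi against 4.999 in IL-2 (log2 fold change 1.56 ± 0.11, adjusted p = 2.27e-05) and 20.6 in IL-21 + LDHi against 10.6 in IL-21 (log2 fold change 0.93 ± 0.11, adjusted p = 0.000271). Of the 44 MYC targets outside the ribosome 5 were higher and 13 lower in IL-2 (median -0.26), and 11 higher and 3 lower in IL-21 (median 0.21). Slc7a5 was 22.5 RPKM in IL-2 + LDHi against 65.0 in IL-2 (log2 fold change -1.57 ± 0.14, adjusted p = 6.75e-05), with Shmt2 at 49.5 against 93.8 RPKM (log2 fold change -0.96 ± 0.10, adjusted p = 0.000164). Of 21 purine and pyrimidine synthesis genes 2 were higher and 6 lower in IL-2, with 4 higher and 5 lower in IL-21. Rrm2, a ribonucleotide reductase subunit, was 1.10 RPKM in IL-21 + LDHi against 28.1 in IL-21 (log2 fold change -4.68 ± 0.21, adjusted p = 1.02e-06). Of 17 nuclear RNA exosome genes 7 were higher and 2 lower in IL-2, with 3 higher and 0 lower in IL-21.

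Of the 15 tested genes of the wider MYC and MAX network 5 were higher and 5 lower in IL-2 against no cytokine, 1 higher and 3 lower with the inhibitor in IL-2, and 0 higher and 3 lower with it in IL-21. The shares of all genes tested were 25.6% higher and 24.8% lower in the first comparison. They were 17.8 and 21.6% in the second and 11.1 and 20.3% in the third. Mxi1, a MAX partner that competes with MYC, was 18.1 RPKM in IL-2 against 4.92 without cytokine (log2 fold change 1.87 ± 0.17, adjusted p = 4.37e-05), and 3.59 in IL-2 + LDHi against 18.1 in IL-2 (log2 fold change -2.38 ± 0.18, adjusted p = 2.86e-05). Mxd1, of the same family, was 4.14 RPKM in IL-21 + LDHi against 12.4 in IL-21 (log2 fold change -1.62 ± 0.14, adjusted p = 3.19e-05).

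The choice by name did not use gene structure. In the GENCODE annotation of GRCm38, 9 of 46 members (19.6%) hold an annotated snoRNA gene within them, against 1.75% of 12710 protein-coding genes tested: Nop56, Nop58, Dkc1, Wdr43, Tsr1, Ppan, Gnl3, Ncl and Odc1. Nop56 holds 5 and Nop58 holds 4. Poly(A) libraries do not measure the snoRNAs themselves. The median change of the 9 hosts with the inhibitor was 0.54 in IL-2 and 0.46 in IL-21, against 0.30 and 0.41 for the 37 other members. With a minimum of 50 shared exon bases, 8 members overlap another gene on the opposite strand. Beside Bysl, Wdr12 and Bop1 these are Heatr1 with Lgals8 (155 bases, 17.7 to 23.8 RPKM), Tsr1 with Srr (1240 bases, 2.22 to 5.28 RPKM), Mybbp1a with Spns2 (131 bases, 0.0796 to 4.78 RPKM), Noc2l with Samd11 (598 bases) and Rrp1b with Hsf2bp (54 bases), and the last 2 partners stayed below 1 RPKM in all libraries.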

How the data were processed

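Poly(A) RNA (500 ng per library) was sequenced from 10 libraries in 5 groups of 2. The deposited files hold whole-number read counts per RefSeq transcript, the transcript length (another kind of value, in bases) and the authors' RPKM, per the file headers. The submitters' processing notes name mm10, TopHat2 2.2.1, Bowtie2 2.2.6, SAMtools 0.1.8, bedtools 2.25.0 and edgeR. No source used here gives the strand setting, and a gene's transcripts each count a read they share. Of 31682 transcripts, 1 was kept for each of 23992 symbols, that with most reads summed over the 10 libraries. RPKM rests on the authors' library totals, so a library with a low share of kept reads has lower RPKM throughout, whereas the tests scale the kept counts.

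Counts were tested with edgeR 4.0.16 (quasi-likelihood, robust, R 4.3.3) in 1 fit of all libraries, after edgeR's filter (minimum count 10, minimum total 15, 14357 genes left) and TMM scaling, with Benjamini-Hochberg adjustment over all of them and a threshold of 0.05. The common biological coefficient of variation was 0.171. The procedure was tested on simulated data. The interaction is the inhibitor effect in IL-21 minus that in IL-2. Alternatives were other size factors, DESeq2 1.42.0, limma 3.58.1 on log2(RPKM + 1) and log2(RPKM + 0.1), other filters, the longest transcript, only the groups compared, a replicate block and 10 fits without 1 library each. Every member may be named. Full statistics by rule go to Myc, Max and the 3 largest changes in each direction, and others were added by role after their values were seen. Of the other lists, up to 2 genes per comparison are named by p. Members and lists were chosen with earlier results of these data known. Tables and figures were made with Python 3.11.15, pandas 2.3.3, numpy 2.4.6 and matplotlib 3.10.9. No replicate pair agreed within sampling noise (chi-square per degree of freedom 5.58 to 118).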

Additional observations from a re-analysis of the deposited data

Results flagged for a closer look

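The effect of the inhibitor differed between the cytokines for 6 of 46 members, by edgeR's test of the interaction over all genes (log2 change in IL-21 minus log2 change in IL-2, n = 2 libraries per group). Of all genes tested 21.7% were called, 7.98% with a positive and 13.8% with a negative difference, so the members did not stand out by count. The difference was 1.23 for Npm1, 1.06 for Odc1, 0.98 for Myc and 0.76 for Rrp1b, and it was -1.06 for Ubtf and -0.72 for Nolc1. Npm1 and Myc fell with the inhibitor in IL-2, while Odc1 and Rrp1b rose with it in IL-21, and Ubtf and Nolc1 rose with it in IL-2. The Nolc1 call was lost in 6 alternatives, each without 1 library of IL-21 + LDHi, IL-2 + LDHi or IL-2, and the Odc1 call in 1 (limma on log2(RPKM + 1), adjusted p = 0.0511).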

How the results depend on the processing

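The named members counted here were, in each comparison, Myc, Max and those with the largest called changes in the fit of all libraries. That choice favours keeping the call. Of 1176 values for 56 pairs of a named member and a comparison under the alternatives, 1105 kept direction and call, 53 lost the call, 9 gained one and 9 changed sign, all 9 for changes of Myc or Max that were not called. For Myc with the inhibitor in IL-21 these were -0.021 (filter of RPKM 5) and -0.186 (without IL-21 replicate 1, against 0.277 without replicate 2). For Max they were 0.175 with the inhibitor in IL-21 (without IL-21 replicate 2, against -0.558 without replicate 1), -0.0095, -0.012 and -0.012 in IL-21 + LDHi against IL-2 + LDHi (authors' library totals and limma with either pseudocount), and -0.0061, -0.050 and -0.073 in IL-2 + LDHi against no cytokine (kept library size, filter of RPKM 5, without no cytokine replicate 1, against 0.123 without replicate 2).

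The number of members called moved by over 1.5 times as follows. In IL-2 against no cytokine it was 16 with kept library size or limma on log2(RPKM + 1), against 25. These settings called 51.0 and 44.3% of all genes, against 50.5%. In IL-21 against no cytokine it was 11 with kept library size, 5 with the authors' totals or limma with either pseudocount, 1 with only the groups compared and 26 with DESeq2, against 17. Of all genes tested, 12.1% were called with kept library size, 10.3% with the authors' totals and 12.4 and 11.8% with limma (pseudocounts 1 and 0.1). The share was 0.663% with only the groups compared and 11.9% with DESeq2, against 11.5%. In IL-21 against IL-2 it was 13 with the authors' totals, 12 and 14 with limma (pseudocounts 1 and 0.1) and 11 with only the groups compared, against 22. In the same order, 45.3, 41.4, 44.2 and 32.9% of all genes tested were called, against 49.6%. With the inhibitor in IL-21 it was 13 with only the groups compared, against 27, while the share of all genes was 16.9%, against 31.3%. In IL-21 + LDHi against IL-2 + LDHi it was 3 with the authors' totals or either limma fit and 29 with only the groups compared, against 10. The share of all genes was 23.8% with the authors' totals and 20.6 and 22.6% with limma. It was 56.0% with only the groups compared, against 26.1%.

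Leaving out 1 library gave 13 to 30 in IL-2 and 6 to 28 in IL-21 against no cytokine, 12 to 24 in IL-21 against IL-2, 20 to 31 and 14 to 30 with the inhibitor in IL-2 and in IL-21, 3 to 22 between the inhibitor groups, 22 to 42 in IL-2 + LDHi and 36 to 41 in IL-21 + LDHi against no cytokine, and 4 to 11 for the interaction. A replicate block gave 26, 16, 23, 24, 27, 11, 37, 40 and 6 in the same order, beside 50.3, 11.3, 49.0, 39.1, 30.6, 25.5, 23.4, 36.1 and 21.1% of all genes tested. It ended the call of Polr1c with the inhibitor in IL-2 (adjusted p = 0.0573) and changed no other call among the named pairs. Same-numbered libraries were not shown to be paired, since their deviations correlated at -0.147 to 0.483.

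The median log2 change of all genes lay more than 0.1 from 0 under some scalings. With the kept library size it was -0.17 in IL-2 against no cytokine, 0.13 with the inhibitor in IL-2, -0.11 in IL-21 + LDHi against no cytokine and -0.22 for the interaction. With the authors' totals it was -0.16 in IL-21 against no cytokine, -0.14 in IL-21 against IL-2, -0.16 between the inhibitor groups and -0.13 in IL-21 + LDHi against no cytokine. The median change of the members with the inhibitor stayed between 0.29 and 0.43 in IL-2 and between 0.38 and 0.52 in IL-21. In IL-21 against IL-2 it ran from -0.02 to 0.23 and for the interaction from -0.09 to 0.11. The interaction counts of 4 higher and 2 lower became 4 and 4 with the kept library size, where 23.6% of all genes were called against 21.7%. The causes were not tested.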

Other observations

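Among the neighbouring lists, Mxd3, a MAX partner that opposes MYC, was at 0.0851 ± 0.0316 RPKM in IL-21 + LDHi against 14.6 ± 2.24 in IL-2 + LDHi (SD, n = 2 each), a log2 difference of -7.21 ± 0.42 with an adjusted p of 2.79e-06 by edgeR, and Rrm2 was at 1.10 ± 0.174 against 74.0 ± 1.86 RPKM (-5.89 ± 0.22, 2.02e-07). Eif5a, the translation factor modified with a group from spermidine, was at 367 ± 27.1 RPKM in IL-2 + LDHi against 200.2 ± 13.8 without cytokine (0.81 ± 0.11, 0.00101). The promoters of the 39 members with an entry had a median GC content of 58.4% and a median of 18 CpG, against 59.2% and 15 for the 10500 genes tested with one.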
